A study of Homo sapiens with 18 samples.

Results

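RING1B ChIP-seq peaks that were found in a single replicate and lay away from EWSR1-FLI1 made up 2736 of the 6518 RING1B peaks in A673, an established Ewing sarcoma cell line. The 6518 peaks are those of both replicate lists together, so a region found in both is counted in each. A member was a peak that shared no base with any RING1B peak of the other replicate and none with an EWSR1-FLI1 peak. Replicate 1 contributed 684 of its 2573 peaks (26.6%), called replicate 1-only, and replicate 2 contributed 2052 of its 3945 peaks (52.0%), called replicate 2-only. A further 278 peaks of replicate 1 and 278 of replicate 2 were also absent from the other list but shared a base with EWSR1-FLI1, and were left out. The peaks used for comparison were found in both replicates, again without EWSR1-FLI1. They numbered 721 in replicate 1 and 722 in replicate 2 and are called shared.

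The series holds 18 samples of untreated or short-hairpin-carrying A673 cells, and peak lists of 5 of them were used. These were RING1B (2 replicates, MBL antibody D139-3), monoubiquitinated histone H2A (H2Aub1, 2 replicates, Cell Signalling antibody D27C4) and EWSR1-FLI1 (1 sample, Abcam antibody ab15289), none with a treatment in the labels. A673 carries the EWSR1-FLI1 fusion, and all lists come from this cell line. The antibody to the fusion is labelled only by its catalogue number, and nothing in the labels says that the replicates were separate cultures.

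RING1B is the catalytic subunit of Polycomb repressive complex 1, in which it acts as a ubiquitin ligase that places one ubiquitin on histone H2A. Canonical and variant forms of the complex differ in how they reach chromatin, the former through CBX proteins that read methylated histone H3, the latter largely through CpG-rich promoters. Strong RING1B domains commonly cover promoters of silent developmental genes. In Ewing sarcoma cells RING1B has also been described at enhancers bound by the fusion.

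Members were chosen by where RING1B and EWSR1-FLI1 peaks were called, so their scores, widths and distances to the other replicate are descriptions without a test. The score is the authors' own value per peak, of unstated scale, and is read within a list. Both groups sat in the lower part of their lists. Replicate 1-only scores ran from 50 to 260.86 with a median of 64.6, against a median of 97.6 for shared peaks of that list. Replicate 2-only scores ran from 50.01 to 382.94 with a median of 66.5, against 107 for shared peaks. The median member ranked at percentile 26.3 of the replicate 1 list and at percentile 35.5 of the replicate 2 list. A score of at least 100 was held by 84 members of replicate 1 (12.3%) and 305 members of replicate 2 (14.9%), whereas 48.0% and 52.5% of shared peaks reached it.

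Among peaks without EWSR1-FLI1, the fraction seen in one replicate fell with the score in both lists. In replicate 1 it was 69.5% at scores of 50 to 60 (269 of 387 peaks), 57.6% at 60 to 80, 53.6% at 80 to 100, 32.8% at 100 to 200 and 1.64% from 200 (3 of 183). In replicate 2 it was 87.8% (702 of 800), 83.1%, 76.3%, 58.2% and 10.7% (21 of 196) in the same bands. Replicate 2 thus kept a majority of unshared peaks up to a score of 200, and replicate 1 up to a score of 100. Replicate 2 is also the longer list, its scores may not be on the scale of replicate 1, and sequencing depth is unknown for both.

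**Figure D1:**
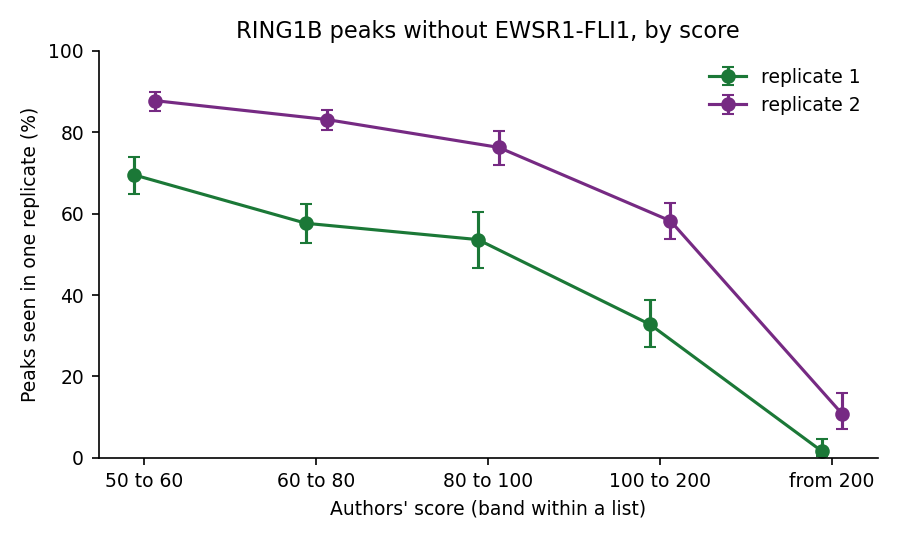
The share of RING1B peaks without EWSR1-FLI1 that were seen in one replicate (vertical axis, percent) is plotted against the authors' score band (horizontal axis) for each list, with 95% Wilson intervals as bars. It falls from 69.5% to 1.64% in replicate 1 and from 87.8% to 10.7% in replicate 2.

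The members were narrow. Replicate 1-only peaks had a median width of 908 bp (quartiles 786 and 1063 bp, range 382 to 5608 bp) and replicate 2-only peaks a median of 951 bp (806 and 1109 bp, range 393 to 9810 bp). Shared peaks had medians of 1103 bp in replicate 1 and 1187 bp in replicate 2. The separation was clearest among wide peaks: 6 of 684 replicate 1-only peaks (0.877%) and 11 of 2052 replicate 2-only peaks (0.536%) exceeded 3 kb, against 59 of 721 (8.18%) and 59 of 722 (8.17%) shared peaks.

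Nearly all of the widest members came from one stretch of chromosome 11 (26568229 to 43667084, hg19), which was bounded by RING1B peaks over 3 kb after the data were seen. It held 12 replicate 1-only and 22 replicate 2-only peaks, with median widths of 2536 and 2743 bp, against 905 and 948 bp elsewhere. Shared peaks were wider still in the stretch, with medians of 3871 and 5433 bp against 1095 and 1173 bp elsewhere, so wide peaks there were not particular to the members. Of the members over 3 kb, 5 of 6 in replicate 1 and 10 of 11 in replicate 2 lay there. The widest was the replicate 2-only peak from 26568229 to 26578038 (9810 bp, score 69.62). It was followed after less than 1 kb by another replicate 2-only peak from 26578879 to 26586004 (7126 bp, score 87.57), which ended 289 bp before a replicate 1 peak that starts at 26586294 (score 208.88). Here members of one list adjoin a peak of the other. The widest replicate 1-only peak in the stretch spanned 28629834 to 28635441 (5608 bp) with a score of 53.36. Outside it the widest replicate 1-only peak lay near the end of the long arm of chromosome 4, from 190522381 to 190527511 (5131 bp, score 72.14). Within the stretch 0 of 12 and 1 of 22 members overlapped reproducible H2Aub1 (0 of 12 allows a share of up to 25% by counting error), beside 6 of 15 and 5 of 14 shared peaks there.

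**Figure D2:**
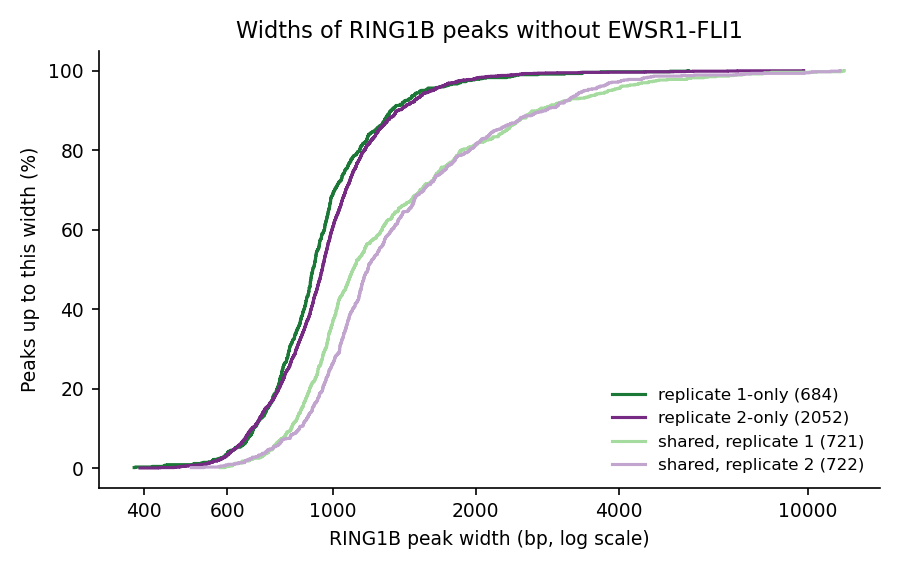
The cumulative percentage of RING1B peaks (vertical axis) is plotted against peak width in bp (logarithmic horizontal axis) for replicate 1-only, replicate 2-only and both sets of shared peaks. Both curves of members lie close together, with medians of 908 and 951 bp, to the left of the shared peaks, whose medians are 1103 and 1187 bp.

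Most members were not near misses of a peak in the other replicate. The median distance to the nearest RING1B peak of the other list was 117 kb for replicate 1-only and 314 kb for replicate 2-only peaks. A peak of the other list lay within 1 kb of 28 replicate 1-only (4.09%) and 43 replicate 2-only peaks (2.10%), and within 5 kb of 83 (12.1%) and 109 (5.31%). The replicate 2 list is longer, so replicate 1-only peaks have more peaks to lie near. Members of both groups were also found side by side. The closest such pair lay on chromosome 1, where a replicate 1-only peak (111188356 to 111189442, score 55.34) ended 88 bp before a replicate 2-only peak (111189531 to 111190809, score 148.63).

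Around the boundary set by sharing 1 base, some excluded and included peaks looked much alike. Just inside the rule, a replicate 2-only peak on chromosome 2 (72740782 to 72742428, score 66.47) started 37 bp after a replicate 1 peak with a score of 731.44. A replicate 1-only peak on chromosome 14 (60979244 to 60980510, score 62.29) lay 59 bp from a replicate 2 peak with a score of 95.68. Just outside it, a replicate 2 peak of chromosome 3 (147088283 to 147088956, score 56.79) shared 11 bp with a replicate 1 peak with a score of 449.9. A replicate 1 peak of chromosome 7 (25899461 to 25900832, score 163.01) shared 88 bp with a replicate 2 peak with a score of 3100. In these 4 the flanked peak had the higher printed score, and in others the lower, though the scales of both lists may differ. A replicate 2-only peak on chromosome 8 (26059373 to 26060801, score 101.17) lay 86 bp from a replicate 1 peak with a score of 62.49, and a replicate 1 peak of chromosome 6 (126070999 to 126073258, score 195.21) shared 224 bp with a replicate 2 peak with a score of 59.73. Peaks found in both replicates lay within 5 kb of 62 replicate 1-only peaks (9.06%) and 87 replicate 2-only peaks (4.24%) in the same list.

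The mark that RING1B deposits was present at a minority of members. Reproducible H2Aub1 regions were merged from peaks of both H2Aub1 lists, so a peak could touch a part called in 1 list only. The share of peaks that touch both lists was not compared. Of the replicate 1-only peaks, 89 of 684 shared at least 1 bp with a reproducible H2Aub1 region (13.0%, 95% Wilson interval 10.7 to 15.7%), against 16.9% of all RING1B peaks of that list. Of the replicate 2-only peaks, 195 of 2052 did so (9.50%, 8.31 to 10.8%), against 14.2% of all peaks of that list. Shared peaks carried the mark at 248 of 721 (34.4%) in replicate 1 and 249 of 722 (34.5%) in replicate 2. Members overlapped H2Aub1 less often than shared peaks, with a difference of -21.4 percentage points in replicate 1 (Newcombe interval -25.6 to -17.0, odds ratio 0.285, two-sided Fisher's exact p = 2.08e-21). In replicate 2 the difference was -24.98 points (-28.7 to -21.3, odds ratio 0.199, Fisher's exact p = 6.58e-50). Benjamini-Hochberg adjusted values over 9 comparisons were 9.37e-21 and 5.93e-49. The direction was found on 20 of 23 chromosomes for replicate 1, with chromosome 12 opposite, and on 21 of 23 for replicate 2, with chromosomes 19 and 22 opposite. Fisher's test treats neighbouring peaks as independent, and each replicate is 1 list, so all such p-values compare these lists and may reflect technical spread.

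Replicate 1-only peaks were on H2Aub1 somewhat more often than replicate 2-only peaks. The difference was -3.51 percentage points for replicate 2-only minus replicate 1-only (-6.49 to -0.830, odds ratio 0.702, Fisher's exact p = 0.0112, adjusted p = 0.0144). This call was lost under 7 of 18 alternatives. Among them were EWSR1-FLI1 peaks kept in (-1.31 points, Fisher's exact adjusted p = 0.289), gene-rich chromosomes alone (-0.556 points, Fisher's exact adjusted p = 0.826) and H2Aub1 replicate 1 left out (-2.39 points, Fisher's exact adjusted p = 0.0746). The direction was found on 15 of 23 chromosomes. Against the H2Aub1 replicate 1 list, 20.9% of replicate 1-only and 16.8% of replicate 2-only peaks carried the mark. Against the shorter H2Aub1 replicate 2 list these shares were 10.96% and 8.58%.

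**Figure D3:**
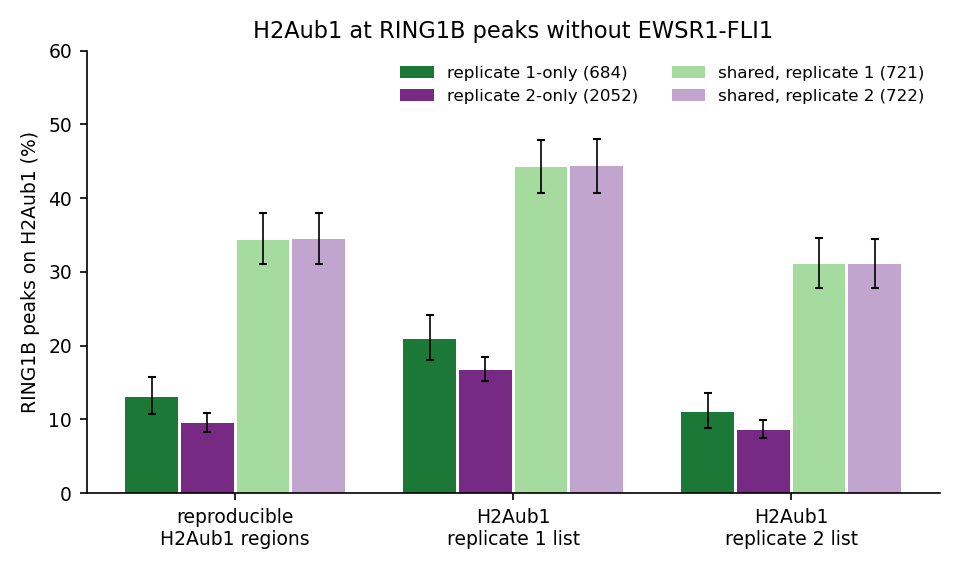
Bars give the percentage of RING1B peaks without EWSR1-FLI1 that share at least 1 bp with reproducible H2Aub1 regions or with either H2Aub1 list (horizontal axis), with 95% Wilson intervals. The members stand at 13.0% and 9.50% for reproducible regions and the shared peaks at 34.4% and 34.5%, and the order is alike for each H2Aub1 list.

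Score and width moved with this contrast, since shared peaks were stronger and wider. Within equal score bands the mark was rarer at members in all bands of replicate 2. At scores of 50 to 60, 63 of 702 replicate 2-only peaks (8.97%) and 21 of 98 shared peaks (21.4%) overlapped H2Aub1, and at 100 to 200 the shares were 9.86% and 33.3%. From a score of 200, 2 of 21 replicate 2-only peaks (9.52%, 2.65 to 28.9%) carried it, beside 109 of 175 shared peaks (62.3%). In replicate 1 the shares were 11.9% and 17.8% at 50 to 60 and 19.8% and 34.3% at 100 to 200. From 200, only 3 replicate 1-only peaks remained, 2 of them on the mark. Between 60 and 100 the difference was -6.51 points in replicate 1 (Fisher's exact adjusted p = 0.0479) and -11.1 points in replicate 2 (Fisher's exact adjusted p = 3.68e-05). Among peaks of 800 to 1200 bp it was -11.3 points (Fisher's exact adjusted p = 9.11e-05) and -15.9 points (Fisher's exact adjusted p = 2.44e-12). The H2Aub1 share of replicate 2-only peaks stayed between 7.62% and 10.6% over the 5 score bands, while that of shared peaks reached 62.3%.

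**Figure D4:**
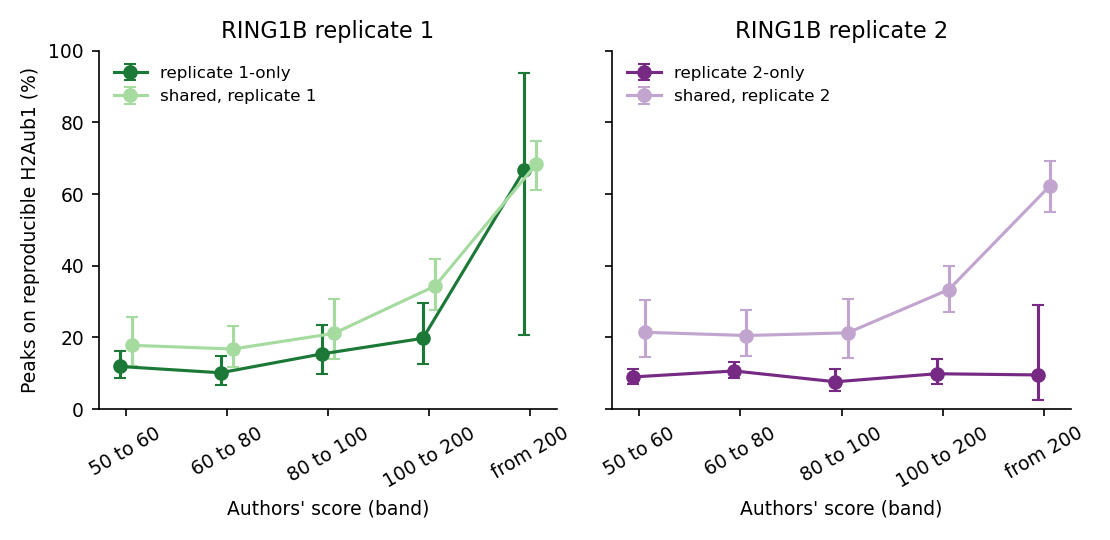
The percentage of RING1B peaks on reproducible H2Aub1 regions (vertical axis) is plotted by the authors' score band (horizontal axis), members against shared peaks, for each RING1B list with 95% Wilson intervals. Replicate 2-only peaks remain between 7.62% and 10.6% in every band, and the last band of replicate 1-only holds 3 peaks.

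In one band of width the groups of members differed more. Among peaks of 1200 to 2000 bp, 29 of 94 replicate 1-only peaks (30.9%, 22.4 to 40.8%) were on H2Aub1, against 40 of 329 replicate 2-only peaks (12.2%, 9.06 to 16.1%). This difference was -18.7 percentage points (Fisher's exact p = 5.19e-05, adjusted p = 0.000156) in a width band chosen after the values were seen. Shared peaks of that band stood at 44.3% in replicate 1 and 31.3% in replicate 2. The gap was not found at other widths: the shares of replicate 1-only and replicate 2-only peaks were 10.9% and 10.6% under 800 bp and 9.72% and 8.04% between 800 and 1200 bp. From 2000 bp the order was opposite, with 2 of 15 (13.3%) and 7 of 41 (17.1%). In the upper part of each list by score (at or above its median), 25 of 131 replicate 1-only (19.1%) and 60 of 652 replicate 2-only peaks (9.20%) carried the mark.

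Counted per peak, the H2Aub1 regions that members met were smaller than those at shared peaks. The 89 replicate 1-only peaks lay on 86 H2Aub1 regions with a median width of 3211 bp, and the 195 replicate 2-only peaks on 186 regions with a median of 3184 bp. Shared peaks lay on regions with medians of 5928 and 5650 bp. These medians count a region once for each peak on it, and the 248 and 249 shared peaks lay on 203 regions in either case. Regions with several shared peaks thus weigh more. The median over all 6408 reproducible H2Aub1 regions, each counted once, was 2193 bp. A wide region is more likely to be hit by any peak. Of the members on the mark, 37 of 89 (41.6%) and 74 of 195 (37.9%) lay wholly inside it, against 56.0% and 58.2% of the shared peaks on the mark. Another 35 replicate 1-only (5.12%) and 104 replicate 2-only peaks (5.07%) missed the mark but lay within 5 kb of it, beside 5.27% and 5.68% of shared peaks. These are shares of all peaks, and peaks on the mark, more common among shared peaks, cannot count. With overlaps included, 18.1% and 14.6% of members lay within 5 kb of the mark, against 39.7% and 40.2% of shared peaks.

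A few members lay inside broad H2Aub1 regions with high H2Aub1 scores. The replicate 1-only peak on chromosome 15 from 68121286 to 68122010 had a score of 52.25, and its H2Aub1 region of 11622 bp had scores of 3100 and 1266.13 in the H2Aub1 replicates. On chromosome 10 a replicate 1-only peak (77157036 to 77158367, score 128.53) lay in an H2Aub1 region of 16602 bp. The replicate 2-only peak on chromosome 9 from 133296936 to 133297787 (score 92.49) lay in a region of 11323 bp with H2Aub1 scores of 2671.68 and 1328.46. On chromosome 14, the replicate 2-only peak from 36984963 to 36986402 (score 128.99) lay in a region of 14755 bp and 3442 bp from a replicate 1 peak, and on chromosome 7 the one from 27232865 to 27233557 (score 69.34) lay in a region of 13639 bp and 2789 bp from a replicate 1 peak. Of the 5 members of each group chosen for their H2Aub1 score, RING1B scores did not exceed 128.99. Scores of at least 100 were uncommon among all members (12.3% of replicate 1-only and 14.9% of replicate 2-only peaks). Members on the mark did not have lower RING1B scores, with medians of 69.2 and 67.8 against 64.0 and 66.5 off it.

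Members with the highest RING1B scores were named as well. Of the 10 replicate 1-only peaks with the highest scores, 3 were on reproducible H2Aub1 and 5 on at least one H2Aub1 list. Over all replicate 1-only peaks these shares were 13.0% and 22.5%, beside 34.4% and 45.1% of shared peaks. Counts among 10 peaks were not tested. The first was on chromosome 6 (7542388 to 7544420, 2033 bp, score 260.86), in an H2Aub1 region of 4769 bp with scores of 674.15 and 106.32. The second was on chromosome 18 (76741805 to 76743643, score 208.52), in a region of 7218 bp with scores of 1060.89 and 377.91. The third, also on chromosome 18 (61258041 to 61259048, score 200.02), was 916 kb from the nearest reproducible H2Aub1 region. Another, on chromosome 14 (29244744 to 29246603, score 170.18), lay 87 bp from a replicate 2 peak with a score of 797.59.

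Of the 10 replicate 2-only peaks with the highest scores, 1 was on H2Aub1, in either list or in both. Over all replicate 2-only peaks the shares were 9.50% on reproducible regions and 17.8% on either H2Aub1 list. The highest was on chromosome 2 (86667325 to 86668720, 1396 bp, score 382.94), 368 kb from the nearest replicate 1 peak. It was followed by peaks on chromosome 20 (361240 to 362133, score 325.66), chromosome 2 (217483765 to 217484852, score 323.44), chromosome 6 (26156045 to 26158754, 2710 bp, score 283.37) and chromosome 20 (50601086 to 50602119, score 277.84). The exception on the mark was on chromosome 6 (108350480 to 108351520, score 255.55). All 10 lay at least 16402 bp from any replicate 1 peak, and the lowest of their scores was 240.39.

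Replicate 2-only peaks lay on gene-rich chromosomes more often than replicate 1-only peaks and than the shared peaks of their own list. The 6 chromosomes with the most protein-coding genes per Mb, namely 19, 17, 11, 16, 22 and 20, make up 15.8% of the hg19 length of chromosomes 1 to 22 and X. They held 450 of 2052 replicate 2-only peaks (21.9%, 20.2 to 23.8%), against 18.8% of all peaks of that list, and 84 of 684 replicate 1-only peaks (12.3%, 10.0 to 15.0%), against 13.6% of all peaks of that list. The difference of 9.65 percentage points (6.46 to 12.6, odds ratio 2.01) had a Fisher's exact p of 1.18e-08 (adjusted p = 3.53e-08). Replicate 2-only peaks also exceeded the shared peaks of their list (15.8%) by 6.14 points (2.81 to 9.23, Fisher's exact p = 0.000381, adjusted p = 0.000774). With the 3 most gene-rich chromosomes alone this excess was 2.85 points and no longer passed (Fisher's exact adjusted p = 0.0791). Replicate 1-only peaks differed from the shared peaks of theirs (15.95%) by -3.67 points, which did not pass the threshold (-7.30 to -0.0159, Fisher's exact p = 0.0555, adjusted p = 0.0625). The title lines of both RING1B lists differ in terms that are not explained, so the replicate and the way its list was made cannot be told apart, here or for chromosome ends.

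Chromosome 19, with 24.5 genes per Mb the most gene-dense, showed the widest gap. It carried 85 replicate 2-only peaks (4.14% of the group) and 6 replicate 1-only peaks (0.877%), beside 9 shared peaks. That is 144 replicate 2-only peaks per 100 Mb, the highest density of any chromosome, against 10.1 replicate 1-only peaks per 100 Mb. On chromosome 22 the counts were 27 and 3, on chromosome 16 they were 65 and 9, on chromosome 20 they were 55 and 8, and on chromosome 17 they were 73 and 11. Chromosome 11 was nearly even once group size is considered, with 7.07% of replicate 2-only and 6.87% of replicate 1-only peaks. The replicate 2-only group held the larger share of its peaks on 6 of the 6 gene-rich chromosomes and on 4 of the other 17, namely 1, 9, 10 and 12. Without chromosome 19 the difference was 7.05 points (Fisher's exact adjusted p = 4.93e-05), and without chromosome 11 it was 10.2 points (Fisher's exact adjusted p = 8.53e-12).

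Across the 23 chromosomes, replicate 2-only peaks per 100 Mb rose with genes per Mb (Pearson r = 0.754, Spearman rho = 0.636), whereas replicate 1-only peaks did not (r = -0.349, rho = -0.230), nor did shared peaks of replicate 2 (r = -0.127, rho = -0.0474). Without chromosome 19, r was 0.550 and -0.232 for the members of replicates 2 and 1. These are descriptions over chromosomes, whose peaks come from the same libraries. As a share of the list on each chromosome, replicate 2-only peaks ranged from 39.2% on chromosome 13, the poorest in genes, to 77.3% on chromosome 19 (rho = 0.868). For replicate 1-only peaks this share was 19.2% on chromosome 13 and 23.1% on chromosome 19 (rho = -0.112). Chromosome X had the highest share in replicate 1, with 17 of 41 peaks (41.5%).

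**Figure D5:**
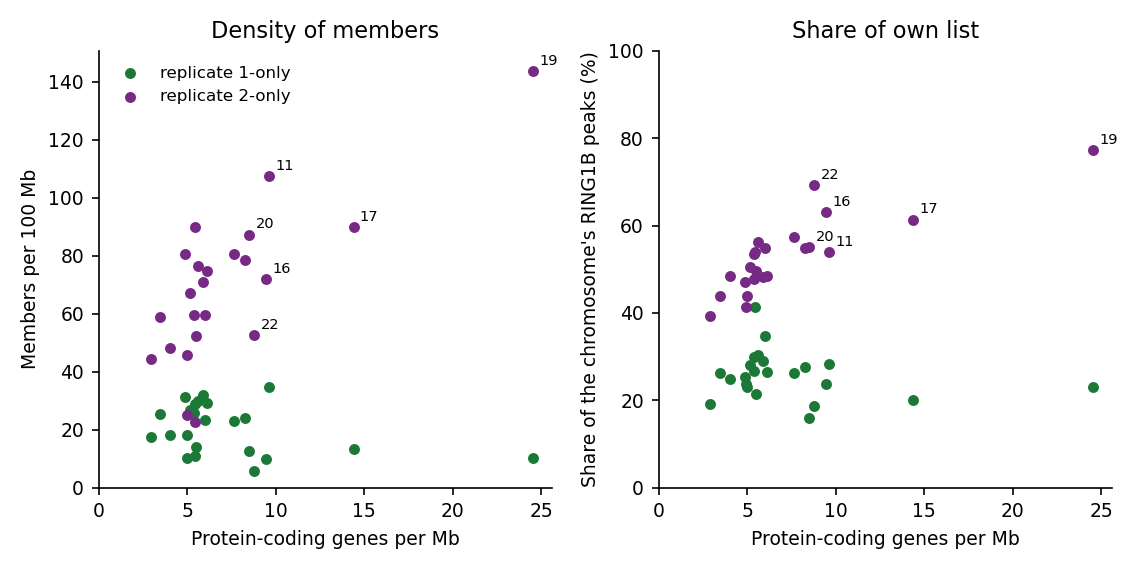
Each point is a chromosome, placed by its protein-coding genes per Mb (horizontal axes); the left panel gives members per 100 Mb and the right panel members as a percentage of all RING1B peaks of that list on the chromosome. Numbers mark the 6 gene-rich chromosomes at their replicate 2-only points, which run up to 144 per 100 Mb and 77.3% on chromosome 19, while replicate 1-only points stay at 10.1 per 100 Mb and 23.1% there.

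On gene-rich chromosomes the replicate 2-only peaks resembled those elsewhere in size and strength. Their median width was 943 bp against 953 bp on the other chromosomes, and their median score 66.9 against 66.5. H2Aub1 was present at 35 of 450 (7.78%) there and at 160 of 1602 (9.99%) elsewhere. They lay closer to reproducible H2Aub1 regions, at a median of 92.5 kb against 209 kb, and farther from EWSR1-FLI1, at 561 kb against 390 kb. Of the reproducible H2Aub1 regions themselves, 28.4% lay on these 6 chromosomes, and of the EWSR1-FLI1 peaks 14.8%. These values within the replicate 2-only group were not tested.

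Replicate 2-only peaks were also more frequent toward chromosome ends. The outer 10 Mb at either chromosome end, 15.15% of that hg19 length, held 397 of 2052 replicate 2-only peaks (19.3%, 17.7 to 21.1%), against 16.2% of all peaks of the list, and 92 of 684 replicate 1-only peaks (13.5%, 11.1 to 16.2%), against 12.4% of all peaks of that list. The difference was 5.90 percentage points (2.68 to 8.84, odds ratio 1.54, Fisher's exact p = 0.00043, adjusted p = 0.000774). It was 5.64 points against shared peaks of replicate 2 (2.47 to 8.55, Fisher's exact p = 0.000568, adjusted p = 0.000852). Replicate 1-only and shared peaks of replicate 1 differed by -0.558 points (-4.16 to 3.06, Fisher's exact p = 0.816, adjusted p = 0.816). On gene-rich chromosomes, 34.0% of replicate 2-only and 19.05% of replicate 1-only peaks lay in the outer 10 Mb, and on the others 15.2% and 12.7%. Shared peaks stood at 22.6% in replicate 1 and 22.8% in replicate 2 on gene-rich chromosomes, and at 12.4% and 12.01% on the others. Gene-rich chromosomes are mostly short, and a fixed 10 Mb takes up more of a short chromosome. The part of their length that it covers was not computed. Shares on gene-rich and other chromosomes therefore cannot be compared directly. On the other chromosomes alone, replicate 2-only exceeded replicate 1-only peaks by 2.56 points, which did not pass the threshold (Fisher's exact adjusted p = 0.152).

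Fewer members than shared peaks had a close neighbour, and some windows held many members. Another peak of the same list lay within 50 kb of 237 replicate 1-only peaks (34.6%) and 658 replicate 2-only peaks (32.1%), against 44.5% and 49.0% of shared peaks. A member of the other group lay within 50 kb of 107 replicate 1-only (15.6%) and 112 replicate 2-only peaks (5.46%). Shared peaks lay near such members more often: 25.2% of those of replicate 1 had a replicate 2-only peak within 50 kb. Of the shared peaks of replicate 2, 17.9% had a replicate 1-only peak within 50 kb. The 5 Mb windows with the most replicate 2-only peaks were on chromosome 11 (65000001 to 70000000), with 21 beside 2 replicate 1-only peaks, at the start of chromosome 19 (1 to 5000000), with 20 beside 0, and on chromosome 11 (60000001 to 65000000), with 17 beside 0. A window of chromosome 6 (25000001 to 30000000) held 17 beside 1. The window with the most replicate 1-only peaks was on chromosome 7 (80000001 to 85000000), with 9 beside 0 replicate 2-only peaks. The next held both groups: 7 beside 5 (chromosome 1, from 160000001), 7 beside 8 (chromosome 3, from 145000001), 7 beside 3 (chromosome 7, from 25000001) and 6 beside 3 (chromosome 1, from 195000001). Replicate 2-only is the larger group, with 2052 peaks against 684. These windows were picked after their counts were seen and were not tested.

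The rule excluded only peaks that touched EWSR1-FLI1, and distances to it resembled those of shared peaks. It lay within 5 kb of 36 replicate 1-only peaks (5.26%) and 49 replicate 2-only peaks (2.39%), beside 4.02% and 3.19% of shared peaks. Within 50 kb the shares were 16.5% and 12.7%, beside 14.98% and 14.5% of shared peaks. Median distances were 317 and 420 kb. Shared peaks were at medians of 401 and 403 kb. These distances were not tested. One member was called on chromosome Y (9956460 to 9957302, score 54.07, replicate 1), the only peak on that chromosome in the 5 lists. Its score ranked at percentile 9.06 of its list, so this single weak call does not establish RING1B on that chromosome.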

How the data were processed

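Deposited peak lists of 5 ChIP-seq samples were used, and 13 samples were not analysed here. Alignment with Bowtie to hg19 is taken from the submitters' processing notes, which also list mm9 for RING1B and H2Aub1 with no role. Peak names begin with MACS, per the file headers and rows. Caller version, use of input and filters: not given in the sources used here. RING1B replicate 1 has a title line with the terms plus and inp, and replicate 2 one with the term percentage, none explained, so both lists may have been made differently. Each list holds a deposited score per peak, of unstated scale, from 50 upward. It was ranked within a list, but equal score bands were applied to both lists, whose scales may differ. Without read counts the depth is unknown, and intervals cover counting error over peaks only. Coordinates are hg19, 1-based.

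Overlap meant at least 1 bp. Reproducible H2Aub1 regions were merged peaks of both H2Aub1 lists holding a peak of each, so parts of a region may come from 1 list. Shares have 95% Wilson intervals and differences Newcombe intervals. The 9 comparisons used two-sided Fisher's exact tests with Benjamini-Hochberg adjustment (scipy 1.17.1, Python 3.11.15) and a threshold of 0.05. Under an alternative, its values replaced their own in this family before adjustment. The overlap and share tests were tested on simulated data drawn independently, without the clustering of neighbouring peaks. Protein-coding genes were counted per chromosome in RefSeq's GRCh38.p14 table and divided by hg19 lengths (GenomeInfoDb 1.38.1). An hg19 genome and annotation were not used here, so members carry no gene names or sequences, and the planned comparisons of gene starts within 5 kb and of gene lists were not run. Named regions were, in each group, the 10 with the highest score, the 5 widest, the 5 with the highest H2Aub1 score (percentiles of both H2Aub1 replicates added) and the 5 nearest to the other replicate, with the 5 shared peaks of smallest overlap. Examples of these are printed. Members, lists and comparisons were chosen with earlier results of these data known.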

Additional observations from a re-analysis of the deposited data

How the results depend on the processing

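Of 120 recomputed values over the 9 comparisons, 107 kept their side of the threshold (adjusted p by Fisher's exact test), and none that passed it changed direction. H2Aub1 at members against shared peaks kept its call under the 18 alternatives run in each replicate, from -30.4 to -6.51 points in replicate 1 and from -32.2 to -10.4 points in replicate 2, as did the gene-rich excess of replicate 2-only over replicate 1-only peaks under 11 (5.41 to 11.3 points).

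The H2Aub1 difference between replicate 2-only and replicate 1-only peaks was the least stable. It no longer passed for members at least 5 kb from other peaks (-2.49 points), with EWSR1-FLI1 peaks kept in (-1.31), for peaks of 800 to 1200 bp (-1.68), for scores of 60 to 100 (-2.02), on gene-rich chromosomes alone (-0.556) or for the upper 50% of H2Aub1 scores (-1.80). Leaving out an H2Aub1 replicate gave -4.14 to -2.39 points, and the call was lost without H2Aub1 replicate 1. The outer 10 Mb excess over replicate 1-only peaks no longer passed for the upper 50% of scores (5.13 points) or on the other 17 chromosomes (2.56), and that over shared peaks of replicate 2 for peaks of 800 to 1200 bp (3.83) or on those chromosomes (3.22). The gene-rich excess over shared peaks of replicate 2 was 2.85 points for the 3 most gene-rich chromosomes and no longer passed, and the replicate 1 difference passed at scores of 60 to 100 (-6.29). The cause of these changes was not tested. Restrictions to a width or score band, to or without certain chromosomes, and without the stretch of chromosome 11 were chosen after seeing the data.

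A replicate block, with RING1B and H2Aub1 lists paired by number, gave -23.3 and -22.4 points against shared peaks, and -12.3 points between the groups, where it sets the longer H2Aub1 list against the shorter. Of the replicate 1-only peaks, 79 were on H2Aub1 replicate 1 alone and 11 on replicate 2 alone. For replicate 2-only peaks these counts were 190 and 22 (Fisher's exact p = 0.688 between the groups). With only 11 and 22 peaks on H2Aub1 replicate 2 alone, this test cannot show that pairing by number is absent. Leaving out a RING1B replicate leaves no members and was not run. Depth is unknown, so a peak seen in one list may have gone undetected in the other.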
